A study of Mus musculus with 2 samples.

Results

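Galanin and its receptor were followed as 2 genes of the 32289 features counted in nuclei of the mouse anterior hypothalamus. The members were taken by symbol: Gal, which encodes galanin, and Galr1, which encodes galanin receptor 1. The libraries came from 2 pools of wild-type male mice, 1 pool of 5 mice aged 22 months and 1 pool of 5 mice aged 3 months. The dissected block held the preoptic area, a region at the front of the hypothalamus. Nuclei were sorted on a DNA stain and profiled by droplet sequencing, which counts each captured RNA as a unique molecular identifier (UMI). With 1 library per age there was no replicate and no test between the ages was possible, so every 95% interval below covers counting error only, and age, pool and library cannot be told apart. No strain name was found in the labels.

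Galanin is a secreted neuropeptide, cut from a larger precursor in the secretory pathway and stored in dense-core vesicles. Its receptors are G protein-coupled: galanin receptor 1 signals mainly through inhibitory Gi/o proteins, which lower cyclic AMP and can open inwardly rectifying potassium channels. In the preoptic area galanin neurons are known for roles in sleep and body temperature and in parental behaviour, and many of them are GABAergic. RNA of a nucleus reports transcription and nuclear RNA, not peptide or receptor protein.

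In the GENCODE M21 annotation of GRCm38, Gal (ENSMUSG00000024907) lies on the minus strand at chr19:3409915-3414544, and no other gene model overlaps it. No gene model overlaps Galr1 (ENSMUSG00000024553) either.

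The libraries held 79107368 aged and 87520038 young UMIs. Barcodes with at least 500 genes and at most 5% mitochondrial UMIs numbered 8597 and 10437, of which 25 barcode sequences occurred in both libraries. Removal of called doublets left 8229 and 9948 nuclei, including 5001 and 6428 neurons with medians of 8352 and 7761.5 UMIs. An unnamed cluster of 518 aged and 88 young shallow nuclei (medians of 683 and 708 UMIs), led by Oxt and ribosomal protein genes, was kept apart. Barcodes of 150 to 450 UMIs that were not nuclei served as the measure of free RNA, RNA outside nuclei that droplets pick up.

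Most Gal UMIs lay outside nuclei. Of 6433 Gal UMIs in the aged library, 2287 (35.6%) were in nuclei, and of 7347 in the young library, 2517 (34.3%) were. Most Galr1 UMIs lay in nuclei, 288 of 378 aged UMIs (76.2%) and 350 of 447 young UMIs (78.3%). The share of UMIs of all genes in nuclei was not computed, so these shares are not set against it. Free RNA held Gal at 191 CPM (counts scaled to a common total of UMIs; 185 to 197) aged and 275 CPM (267 to 283) young, above the level in every named class of at least 100 nuclei in each library. Galr1 in free RNA stood at 4.12 CPM (3.25 to 5.16) aged and 5.51 CPM young.

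Summed over all neurons, Gal was no higher than in microglia or oligodendrocytes, and above astrocytes and oligodendrocyte precursors. Neurons held 1867 aged Gal UMIs, a level of 40.1 CPM (38.3 to 42.0), and 2136 young UMIs, a level of 38.3 CPM (36.7 to 39.9). Microglia, the immune cells of the brain, stood at 46.2 CPM (33.4 to 62.2) aged and 41.6 CPM (29.6 to 56.9) young. Oligodendrocytes, the myelin-forming glia, stood at 37.7 CPM aged and 35.5 CPM young, astrocytes at 8.82 (2.87 to 20.6) and 19.4 CPM (12.3 to 29.1), and oligodendrocyte precursors at 21.9 and 16.9 CPM. The intervals of neurons and microglia overlapped in both libraries. A Gal UMI was seen in 13.2% of aged and 11.8% of young neurons, and in 7.80% and 7.76% of microglia, whose depth was lower (medians of 2133.5 and 1806 UMIs). At a common depth of 2000 UMIs, which left out 35 aged and 95 young neurons and 170 and 295 microglia, the share was 5.03% and 4.78% in neurons and 6.67% and 6.59% in microglia. A single Gal UMI in a neuron was therefore read as background, and only larger counts were used to mark galanin neurons.

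Galr1 UMIs lay mostly in neurons. Neurons held 270 aged UMIs, a level of 5.80 CPM (5.13 to 6.53), and 324 young UMIs, a level of 5.81 CPM (5.19 to 6.48). In each library this interval overlapped that of free RNA. Oligodendrocytes held 5 aged and 3 young UMIs, levels of 1.22 CPM (0.397 to 2.85) and 0.684 CPM (0.141 to 1.998), both below the neuronal intervals. Microglia held 0 aged UMIs, where 3 counts would be 3.22 CPM, and 2 young UMIs in 1 nucleus. Astrocytes and oligodendrocyte precursors held 0 in both libraries, with 3 counts worth between 2.53 and 5.29 CPM. At full depth 3.54% of aged and 3.58% of young neurons had a Galr1 UMI, against 0.266% and 0.141% of the shallower oligodendrocytes.

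**Figure D1:**
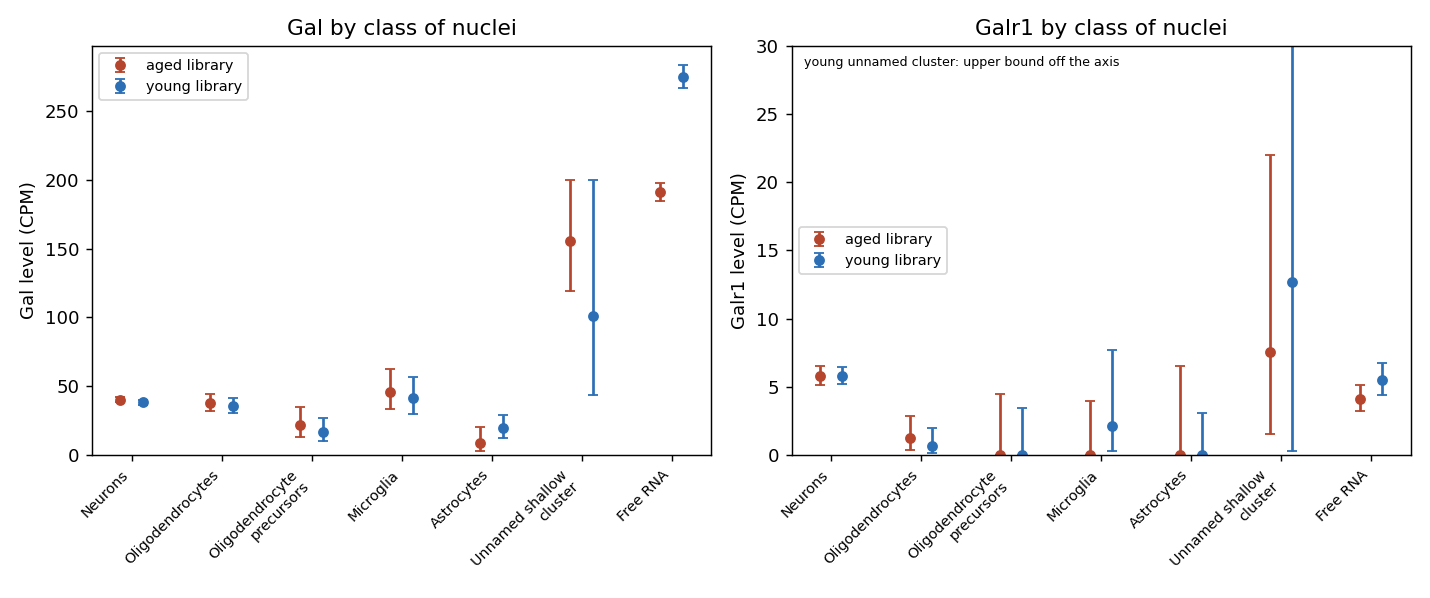
Level of Gal (left) and Galr1 (right) in CPM by class of nuclei and in free RNA, with 1 point per library and exact Poisson 95% intervals of counting error. Free RNA is highest for Gal at 191 CPM aged and 275 CPM young, and neurons are no higher than microglia. Galr1 in neurons at 5.80 and 5.81 CPM lies above oligodendrocytes, with intervals that overlap free RNA.

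Neuronal Gal was concentrated in 1 of 24 sub-clusters that held at least 20 nuclei of each library. Galanin and galanin receptor genes were kept out of the genes used for clustering, so the level of Gal in a sub-cluster was not what placed its nuclei there. Sub-cluster 13, led by Tac2 (neurokinin B precursor), the transcription factor gene Hmx2 and Csta2, held 357 aged nuclei (7.14% of neurons) and 425 young nuclei (6.61%). It held 1100 of the aged Gal UMIs (58.9% of those in neurons) at 312 CPM, and 1347 of the young (63.1%) at 346 CPM. All other neurons together stood at 17.8 CPM (16.6 to 19.1) aged and 15.2 CPM (14.2 to 16.3) young. Sub-cluster 13 was the only sub-cluster of the 24 whose interval lay above free RNA and above microglia, in each library.

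Below it the levels fell without a step between neighbours. Sub-cluster 16, led by the aromatase gene Cyp19a1, Greb1 and Moxd1, came next in the aged library at 46.3 CPM and stood at 30.9 CPM in the young. Sub-cluster 5, led by 9130024F11Rik, stood at 36.8 CPM aged and 35.4 CPM young. The median sub-cluster stood at 16.7 CPM aged and 15.3 CPM young, and the lowest at 6.75 and 6.74 CPM. Of the 23 neighbouring pairs in the order, the intervals were apart in 1, that between sub-cluster 13 and the next, in each library. The interval of 18 aged and 17 young sub-clusters lay wholly below that of microglia.

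Sub-cluster 13 was classed as GABAergic. Slc32a1, the vesicular GABA transporter gene, stood at 155 CPM aged and 123 CPM young, against 161 and 121 CPM in all other neurons. Gad2, a GABA-synthesising enzyme gene, stood at 358 and 307 CPM against 320 and 272 CPM. Slc17a6, a vesicular glutamate transporter gene, was also seen in it, at 36.6 CPM aged and 48.2 CPM young, against 56.0 and 46.8 CPM in all other neurons. Of the marker lists, that of preoptic Esr1 neurons scored highest in it. The same list scored highest in sub-clusters 2, 4, 14, 16 and 17, and its score was higher in sub-cluster 16 (0.843) than in sub-cluster 13 (0.784). Esr1, the oestrogen receptor alpha gene, stood at 129 CPM against 18.4 CPM in all other neurons of the aged library, and at 149 against 17.3 CPM in the young. Prlr, the prolactin receptor gene, stood at 313 against 69.7 CPM aged and 304 against 63.8 CPM young. The progesterone receptor gene Pgr (109 and 126 CPM) and the calcitonin receptor gene Calcr (62.4 and 56.2 CPM) were also above their level in other neurons in both libraries. Moxd1, another marker on that list, was below it at 3.12 CPM against 14.3 aged and 3.33 against 13.05 young. These genes took part in the clustering, so their levels describe the sub-cluster and test nothing.

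**Figure D2:**
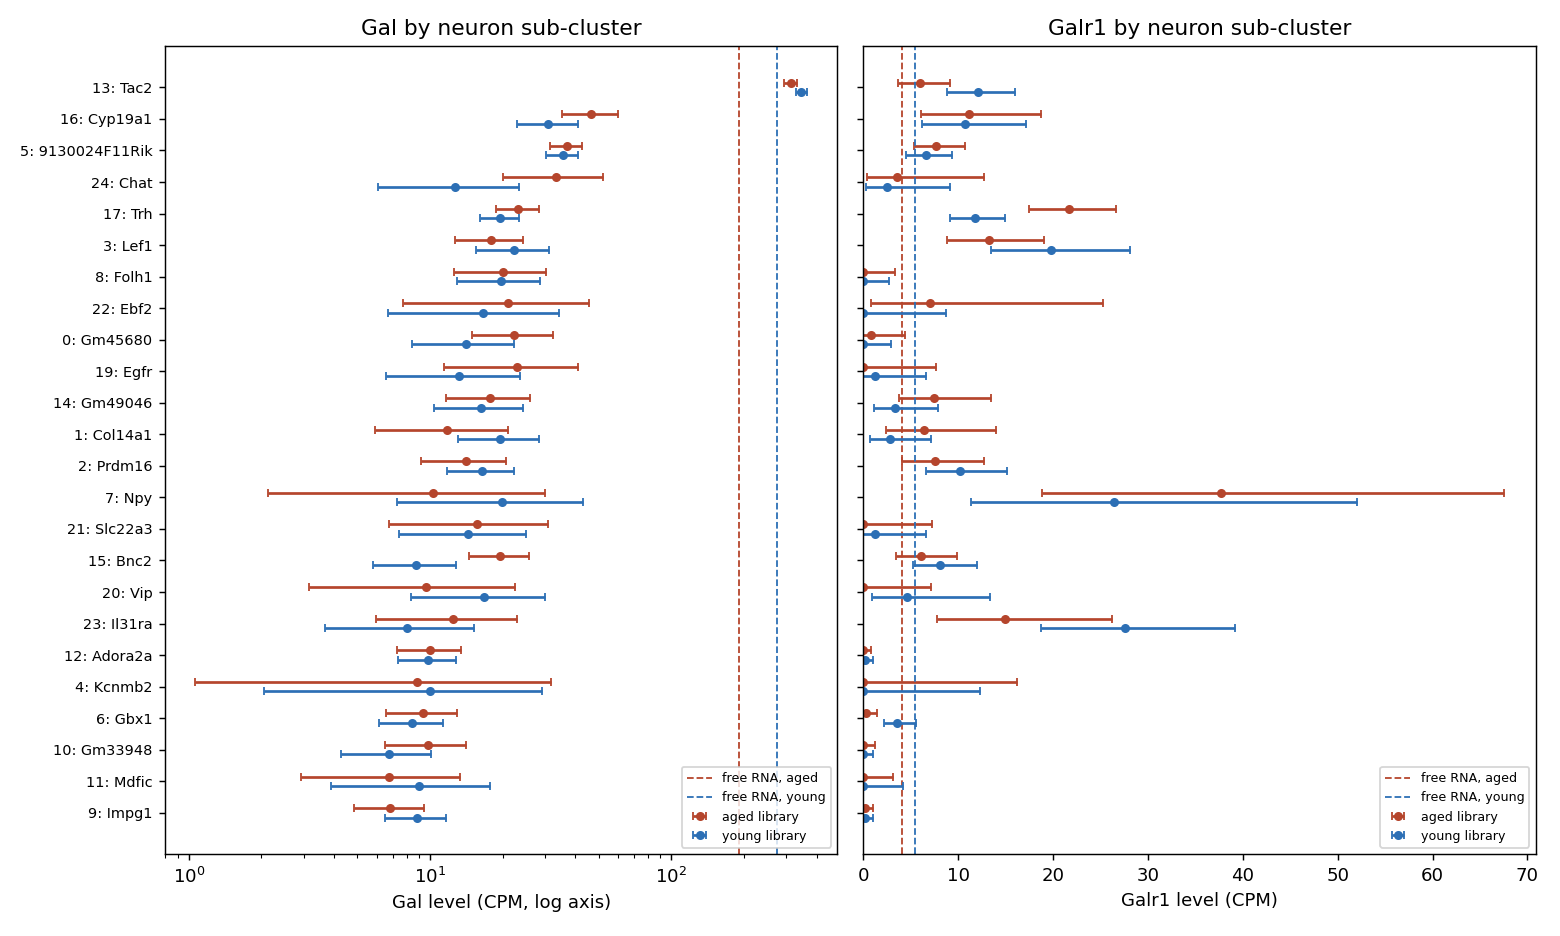
Level of Gal (left, log axis) and Galr1 (right) in CPM in the 24 neuron sub-clusters, each named by its number and leading gene and ordered by Gal, with exact Poisson 95% intervals and the free RNA level of each library as a dashed line. For Gal, sub-cluster 13 stands alone at 312 CPM aged and 346 CPM young, to the right of both free RNA lines, while Galr1 is spread over several sub-clusters.

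Within sub-cluster 13 Gal was uneven. A Gal UMI was seen in 172 of the aged nuclei (48.2%) and 182 of the young (42.8%). Counts of 10 or more occurred in 36 aged and 47 young nuclei, and the 10 nuclei with most Gal held 32.6% of its aged and 27.6% of its young Gal UMIs. Galanin neurons were therefore marked singly, as neurons with more Gal UMIs than a barcode of the same depth made wholly of free RNA of its library would reach at a Poisson tail of 0.0001. The median limit was 8 UMIs for aged neurons and 9 for young ones.

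By that limit 38 aged neurons (0.760%, 0.538 to 1.04) and 40 young neurons (0.622%, 0.445 to 0.846) had Gal above free RNA. They held 747 of the aged Gal UMIs in neurons (40.0%) and 818 of the young (38.3%), at 1956 and 2229 CPM. Their counts ran from 8 to 71 UMIs in the aged library and from 8 to 78 in the young, with a median of 16 in both. Of the 38 aged neurons 32 were in sub-cluster 13, and of the 40 young neurons 37 were. No nucleus of another class passed the limit in either library. The limit was not a gap in the counts: 14 aged and 16 young neurons lay above it by less than 1.5 times, and 23 aged and 23 young lay below it within the same factor. Without the neurons above the limit, sub-cluster 13 still stood at 139 CPM aged (126 to 153) and 160 CPM young (147 to 174), above the microglia of both libraries and below free RNA.

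Galr1 followed another order than Gal. Sub-cluster 7, led by Npy and Sst, which encode neuropeptide Y and somatostatin, stood at 37.7 CPM on 11 UMIs in the aged library and 26.4 CPM on 8 UMIs in the young. Sub-cluster 23, led by Il31ra and Frem1, stood at 14.99 and 27.6 CPM, and sub-cluster 3, whose thalamic markers scored highest, at 13.3 and 19.8 CPM. Sub-cluster 17, led by Trh (thyrotropin-releasing hormone), Gm28526 and Sim1, held the most Galr1 UMIs, 92 aged (34.1% of those in neurons) and 69 young (21.3%). No neighbouring pair in the order of Galr1 had intervals apart, in either library. The interval of Galr1 lay above that of free RNA in 6 aged and 5 young sub-clusters, among them 7, 17, 23 and 3 in both libraries. Galr1 was at 0 UMIs in 8 aged and 6 young sub-clusters.

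Galr1 was higher in glutamatergic than in GABAergic neurons in both libraries. The 6 glutamatergic sub-clusters stood at 17.9 CPM (15.05 to 21.2) aged and 13.3 CPM (11.1 to 15.7) young. Of their 137 aged and 134 young UMIs, sub-cluster 17 held 92 and 69. The 20 classed as GABAergic include sub-cluster 24, whose cholinergic markers scored highest, and sub-cluster 15, led by Bnc2 and Slc17a8, another vesicular glutamate transporter gene. These 20 GABAergic sub-clusters stood at 3.42 CPM (2.86 to 4.05) and 4.16 CPM (3.59 to 4.79). The glutamatergic level of Galr1 was thus 5.24-fold higher aged (4.10 to 6.71) and 3.20-fold higher young (2.54 to 4.01). Gal went the other way, with GABAergic neurons 1.89-fold higher aged (1.61 to 2.22) and 2.44-fold higher young (2.09 to 2.86). Sub-cluster 13 held 1100 of the 1691 aged and 1347 of the 1959 young GABAergic Gal UMIs. All neurons outside it together stood at 17.8 CPM aged and 15.2 CPM young, below the glutamatergic 23.0 and 17.6 CPM. The higher GABAergic level of Gal therefore lay in sub-cluster 13. For Galr1, sub-cluster 7, classed as GABAergic, ranked 1 in the aged order and 2 in the young. That rank depended on the clustering. At the finer resolution described below, the group led by Sst, Npy and Sfrp1 (108 aged and 149 young nuclei) stood at 10.5 and 10.8 CPM. The finer group led by Trh, Sim1 and Adcyap1 stood at 26.1 and 14.9 CPM. The 7 sub-clusters in which markers of Drd1 or Drd2 medium spiny neurons scored highest, all classed as GABAergic, held 2 aged and 3 young Galr1 UMIs. They made up 2026 of the 4311 aged and 2469 of the 5418 young GABAergic nuclei. The ratio of glutamatergic to GABAergic neurons without them was not computed. Their levels were 0.119 CPM (0.0144 to 0.430) and 0.159 CPM (0.0328 to 0.465) against 9.004 and 8.69 CPM in all other neurons, at medians of 7471.5 and 6961 UMIs against 8912 and 8297. The place of those sub-clusters in the dissected block was not tested.

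Galr1 was higher in neurons with Gal above free RNA than in other neurons, also within the same sub-clusters. Of the 38 aged neurons with Gal above free RNA, 7 had a Galr1 UMI (18.4%, 7.74 to 34.3), against 170 of 4963 other neurons (3.43%, 2.94 to 3.97). Of the 40 young ones, 9 had one (22.5%, 10.8 to 38.5), against 221 of 6388 (3.46%, 3.02 to 3.94). Their Galr1 level was 34.0 CPM on 13 UMIs aged and 57.2 CPM on 21 UMIs young, against 5.57 and 5.47 CPM in other neurons, a ratio of 6.12 (3.21 to 10.6) aged and 10.5 (6.38 to 16.3) young. Against other neurons of the same sub-clusters the ratio was 9.35 (4.98 to 16.0) aged and 7.16 (4.43 to 10.9) young. Within sub-cluster 13 alone it was 16.5 (6.34 to 45.9) aged and 6.31 (3.30 to 11.8) young.

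Few nuclei carried these Galr1 counts. The nucleus with most held 4 of the 13 aged UMIs and 8 of the 21 young UMIs, and without it the ratio to other neurons was 4.39 aged and 6.76 young. Depth was slightly higher in the neurons with Gal above free RNA, with medians of 9163 against 8342 UMIs aged and 9101.5 against 7751.5 young. The level in CPM is per UMI and the shares are not corrected for this.

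Other genes of the same nuclei were read from lists chosen with earlier results of these data known. A gene was called when its CPM was past 1.5-fold in the same direction in both libraries and its summed UMIs were at least 50 in each. Of 15861 genes tested, 7.54% were called higher and 11.7% lower in neurons with Gal above free RNA than in other neurons, and Galr1 was among the former. Of 28 transmitter and peptide genes tested, 7 were called higher and 10 lower. Their median log2 ratio was 0.16 aged and -0.39 young, against 0.06 and 0.03 over all genes tested. The interval lay on 1 side of a ratio of 1 in both libraries for 6 of the 7 and for 5 of the 10.

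Th, which encodes tyrosine hydroxylase, the rate-limiting enzyme of dopamine synthesis, was 29.0-fold (16.3 to 49.0) higher aged and 37.7-fold (25.0 to 55.6) higher young. It rested on 18 UMIs in 8 aged nuclei and 33 UMIs in 8 young nuclei, and without the nucleus with most Th it was 14.8-fold and 17.9-fold. Cartpt, the gene of the peptide CART, was 5.19-fold higher aged and 4.84-fold higher young. Against other neurons of the same sub-clusters Th was still 10.9-fold (6.46 to 17.2) and 12.7-fold (8.73 to 17.8) higher, Cartpt 4.08-fold and 3.47-fold, and Cck, the cholecystokinin gene, 7.19-fold and 3.17-fold.

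Tac2 and Nts, the neurotensin gene, behaved otherwise. Tac2 was 6.49-fold higher aged and 10.2-fold higher young over all other neurons, but 1.36-fold and 1.33-fold over the same sub-clusters. For Nts the ratios were 5.28 and 4.77 over all other neurons, and 1.49 and 1.08 over the same sub-clusters. Avp, the vasopressin gene, passed the call, yet 1006 of its 1020 aged UMIs lay in 1 nucleus, and without that nucleus the aged ratio was 0.334. In the young library Avp was 6.66-fold (5.72 to 7.72) higher on 185 UMIs in 7 nuclei, and 4.32-fold without the nucleus with most. Over the same sub-clusters the Avp ratios were 4.39 aged and 26.1 young. The aged one rested on the same nucleus with 1006 of the 1020 UMIs and was not computed without it. Slc17a6, the vesicular glutamate transporter gene, was lower at ratios of 0.335 (0.134 to 0.690) aged and 0.173 (0.0357 to 0.507) young. Tac1, Penk, Trh and Sst, all neuropeptide genes, were the other 4 with both intervals below 1. Over the same sub-clusters Sst stayed lower at 0.309 (0.133 to 0.609) and 0.244 (0.0665 to 0.625), whereas Tac1 stood at 0.761 and 0.992, Penk at 1.75 (1.26 to 2.38) and 1.14, and Trh rested on 1 aged and 0 young UMIs. Slc17a6 stood at 0.490 (0.197 to 1.01) and 0.163 (0.0337 to 0.477). The GABA genes Slc32a1 (1.11 and 1.15), Gad1 (0.998 and 1.13) and Gad2 (1.28 and 1.18) were not called.

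Of 13 hormone receptor genes tested, 5 were called higher and 0 lower over all other neurons, among them Esr1 (2.58 aged and 4.74 young), Pgr (2.18 and 2.39), Prlr (2.50 and 3.57) and Calcr (3.62 and 3.90). The list's median log2 ratio was 0.38 aged and 1.17 young. Over the same sub-clusters Esr1 stood at 0.574 (0.375 to 0.841) aged and 0.842 (0.614 to 1.13) young, and Prlr at 0.740 (0.589 to 0.917) and 0.957 (0.782 to 1.16). Pgr stood at 0.929 and 0.812 and Calcr at 1.12 and 0.904, with intervals that included 1. Esr2, the oestrogen receptor beta gene, was not called, at 0.979 aged and 6.71 young over all other neurons, and stood at 0.373 (0.0451 to 1.35) aged and 4.02 (2.20 to 6.74) young over the same sub-clusters. Without the nucleus with most Pgr UMIs the aged ratio of Pgr to all other neurons was 1.12.

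Of 10 peptide-processing genes, 2 were called higher and 1 lower. Scg2, which encodes secretogranin II of dense-core vesicles, was 2.54-fold (2.29 to 2.81) higher aged and 2.46-fold (2.20 to 2.74) higher young, and 1.68-fold and 1.55-fold over the same sub-clusters. Chgb, the chromogranin B gene, was 1.98-fold and 1.62-fold higher. Pcsk1, a prohormone convertase gene, was called lower on 6 aged UMIs and 1 young UMI. Of 11 Gi/o signalling genes, Gnai3, an inhibitory G protein subunit gene (1.81 and 1.91), and Kcnj6, a potassium channel subunit gene (2.13 and 1.71), were called higher and 0 lower.

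**Figure D3:**
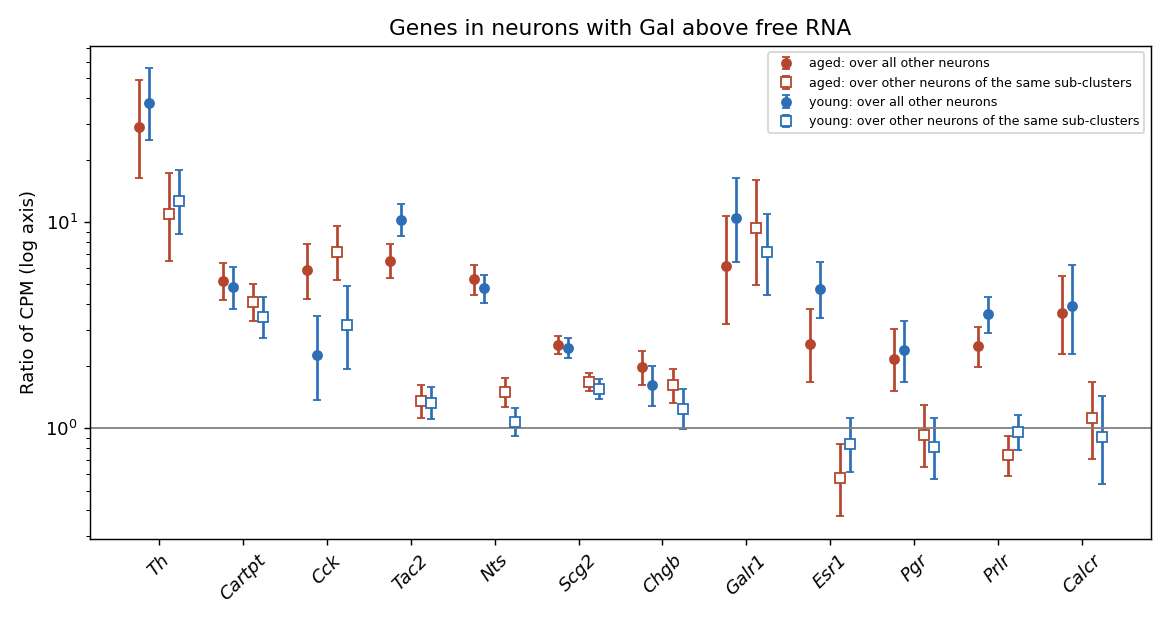
Ratio of CPM (log axis) in neurons with Gal above free RNA over all other neurons (filled circles) and over other neurons of the same sub-clusters (open squares), with 95% intervals of counting error. Th, Cartpt, Cck and Galr1 keep ratios of 3.17 or more in both comparisons except Cck over all other neurons of the young library at 2.26, whereas Esr1 and Prlr fall to 0.957 or less over the same sub-clusters.

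Likeness to each member was described as the lower of the 2 libraries' Pearson correlations of log2(CPM + 5) over the 24 sub-clusters, among 14612 genes with at least 200 UMIs. The points share library, depth and clustering, and no test was made. The genes most like Gal were Irs4 (0.73), an insulin receptor substrate gene, 9130024F11Rik (0.68), Tnxb (0.67), Plcg2 (0.66), a phospholipase C gene, and Gldn (0.63). Esr1 ranked 6 at 0.62. The genes most like Galr1 were Lama1 (0.77), a laminin subunit gene, Prrg4 (0.75), Gdpd2 (0.74), Slc26a11 (0.73) and Cbln2 (0.73), a cerebellin gene. Between Gal and Galr1 the correlation was 0.24 aged and 0.34 young.

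Over all neurons neither member passed 1.5-fold between the ages. Of 18025 genes tested with at least 50 UMIs in neurons, 9.45% passed it in either direction, 553 (3.07%) higher in the aged library and 1151 (6.39%) lower. Gal was 1.05-fold (0.984 to 1.11) the young level in the aged library, and Galr1 was 0.998-fold (0.846 to 1.18). The shares of neurons with Gal above free RNA differed by 0.138 percentage points, aged minus young, with an interval of -0.167 to 0.464. That limit came from each library's own free RNA, which was lower in the aged library. With the higher free RNA level of the 2 libraries used for both, 32 aged and 40 young neurons passed, and the difference was 0.0176 points (-0.274 to 0.327). At 2000 UMIs per nucleus, 0.926% of aged and 0.995% of young neurons had a Galr1 UMI. In free RNA the aged level of Gal was 0.694 times the young (0.664 to 0.726). That direction depended on which barcodes stood for free RNA: in barcodes of 100 or fewer UMIs Gal was at 210 CPM aged and 166 CPM young, a ratio of 1.26. For Galr1 the free RNA ratio was 0.748 (0.543 to 1.03).

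Among the 24 sub-clusters, the interval of the ratio excluded 1 in 4 for Gal and 3 for Galr1. These intervals take UMIs as independent and leave out variation between nuclei. At the common depth used above, the share of nuclei with a UMI differed by an interval that included 0 in each of them. It was -0.654 points (-6.82 to 5.61) for Gal in sub-cluster 13 and 1.14 points (-0.988 to 3.61) for Galr1 in sub-cluster 17. At full depth the interval of this difference excluded 0 for Gal in sub-clusters 15 and 24 and for Galr1 in 17 and 6. In sub-cluster 13 the aged Gal level was 0.903 times the young (0.833 to 0.979), and in sub-clusters 15, 16 and 24 it was 2.22, 1.499 and 2.63 times, on 19.5, 46.3 and 33.4 aged CPM, levels below or level with microglia. Without the nucleus with most Gal in each library, an alternative added after seeing the data, these ratios were 0.898 (0.827 to 0.976), 1.51 (0.867 to 2.66), 1.39 (0.902 to 2.14) and 2.76 (1.11 to 7.44), and 19 of the 51 aged Gal UMIs of sub-cluster 15 lay in that nucleus. The lower aged level of sub-cluster 13 was not seen in its shares of nuclei. Its share with a Gal UMI was 5.36 points higher aged (-1.64 to 12.3). Its share above the free RNA limit was 8.96% aged and 8.71% young, a difference of 0.258 points (-3.72 to 4.39). Galr1 was 1.85-fold higher (1.34 to 2.56) in the aged nuclei of sub-cluster 17, at 21.7 against 11.8 CPM. It was 0.494 times (0.281 to 0.843) in sub-cluster 13, at 5.96 CPM on 21 UMIs against 12.1 CPM on 47. In sub-cluster 6, led by Gbx1, it was seen as 1 UMI in 324 aged nuclei and 19 UMIs in 456 young nuclei, a ratio of 0.0728 (0.00175 to 0.458). Without the nucleus with most Galr1 in each library the ratio was 1.77 (1.26 to 2.48) in sub-cluster 17 and 0.482 (0.256 to 0.873) in sub-cluster 13, and the counts in sub-cluster 6 were 0 and 16. Sub-cluster 18, with Avp and Oxt as its first leading genes, was left out of the order for its 11 aged and 16 young nuclei. It had Gal at 185 CPM on 23 UMIs aged and 40.7 CPM on 7 UMIs young, a ratio of 4.54 (1.89 to 12.5). Without the nucleus with most Gal in each library, which held 10 of the aged UMIs, the ratio was 3.64 (1.22 to 13.05). In the other 20 sub-clusters for Gal, and the other 17 with any Galr1, the interval of the ratio included 1. Free RNA of Gal was lower in the aged library by the measure used here, and its part in these ratios was not tested.

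**Figure D4:**
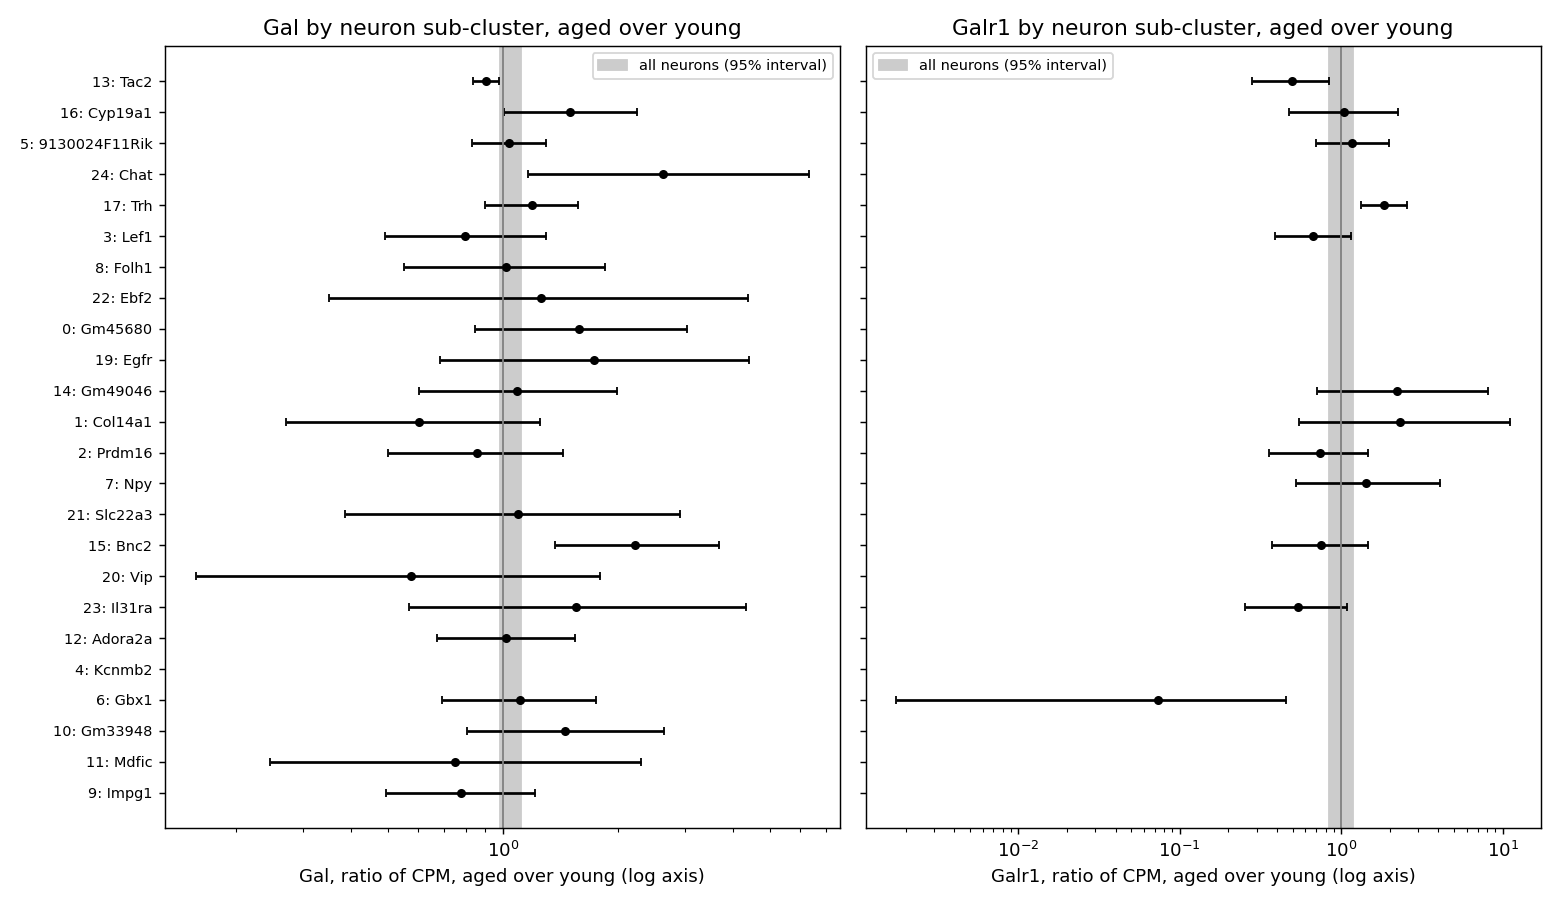
Ratio of CPM, aged over young (log axis), for Gal (left) and Galr1 (right) in the neuron sub-clusters with at least 10 UMIs of the gene in all and at least 1 in each library, with exact conditional 95% intervals, the grey band being that of all neurons. Most Gal intervals cross 1, and Galr1 lies above 1 in sub-cluster 17 at 1.85 and below it in sub-clusters 13 and 6 at 0.494 and 0.0728.

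Clustering at a finer resolution (2) split sub-cluster 13 into groups with ratios on opposite sides of 1, which were singled out after their values were seen. The group led by Csta2, Gpc4 and Pgm5 (178 aged and 183 young nuclei, 83.7% of them from sub-cluster 13) had Gal at 405 CPM aged and 296 CPM young, a ratio of 1.37 (1.21 to 1.55). The group led by Tac2, Pappa and Esr1 (125 aged and 158 young nuclei, 92.9% from sub-cluster 13) had Gal at 156 CPM aged and 347 CPM young, a ratio of 0.449 (0.384 to 0.524). Neurons with Gal above free RNA numbered 20 aged and 15 young in the first and 3 aged and 12 young in the second. The limit was set from each library's own free RNA, at 191 CPM aged and 275 CPM young. Without the nucleus with most Gal in each library, the ratios were 1.29 and 0.477. Galr1 in the Tac2-led group was 4 UMIs aged and 18 young. Another group, led by Acss3, Tnxb and Clca3a2, with 64.5% of its nuclei from sub-cluster 13, had Gal at 214 CPM aged and 266 CPM young. Outside sub-cluster 13, a finer group led by Avp, Oxt and Agtr1a (33 aged and 49 young nuclei) had Gal at 98.4 CPM on 32 UMIs aged and 25.5 CPM on 11 UMIs young, a ratio of 3.86 (1.90 to 8.49), and 3.26 without the nucleus with most in each library. Vasopressin (Avp) and oxytocin (Oxt) are peptide hormones of large neurons that project to the posterior pituitary.

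No gene of the pathway lists passed 1.5-fold between the ages over all neurons. These lists were 3 galanin family genes, 10 peptide-processing genes and 11 Gi/o signalling genes tested, with median log2 ratios of -0.002, 0.13 and -0.11 against 0.02 over all genes tested. The other receptors were scarce: Galr2 was seen as 5 aged and 5 young UMIs and Galr3 as 9 and 12. Galp, which encodes the related galanin-like peptide, was seen as 8 and 12 UMIs. Spx, which encodes spexin, another ligand of galanin receptors, was at 5.33 CPM aged and 6.13 CPM young, a ratio of 0.869 (0.735 to 1.03). The ratio farthest above 1 was that of Pcsk1n, an inhibitor gene of prohormone convertase 1, at 1.36 (1.34 to 1.39), and those farthest below were Arrb2, a beta-arrestin gene, at 0.778 and Kcnj6 at 0.790. Pcsk1n stood at 1878 CPM in aged and 1969 CPM in young free RNA, above its neuronal 437 and 321 CPM.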

How the data were processed

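Each library was deposited as a matrix of UMI counts by gene and barcode, with empty barcodes included. Per the file headers, Cell Ranger 4 made the counts, which the authors left unnormalised. The genome build was not given in the sources used here, nor were the annotation and the use of intronic reads. All further values were computed from these counts. Nuclei were barcodes with at least 500 genes and at most 5% mitochondrial UMIs, and Scrublet in scanpy 1.11.5 removed 368 aged (4.28%) and 489 young (4.69%) doublets. Both libraries were clustered together (2000 variable genes without the galanin family, 30 principal components, 15 neighbours, Leiden resolution 1). Clusters were named from marker lists with at least 3 detected markers, and neurons were clustered again alone into 26 sub-clusters, of which 24 had at least 20 nuclei of each library. Names are rebuilt and stand for nuclei that resemble a type.

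UMIs were summed per library and group and scaled to CPM. Intervals are exact Poisson for levels, exact conditional binomial for ratios, Clopper-Pearson for shares and Newcombe's for differences of shares. Ratios within the same sub-clusters compare the count with that expected from the other neurons of each sub-cluster. Shares at 2000 UMIs are expected values under sampling without replacement. The fold of 1.5 was applied to genes with at least 50 UMIs. The ratio and its call were tested on simulated data. Levels are per UMI and not per transcript length, so the 2 members' levels are not compared with each other. The named genes are the members, the leading genes of their sub-clusters, the galanin family, processing and Gi/o lists, the transmitter, peptide and hormone receptor genes called in both libraries and the 5 genes most like each member. The GABA genes, the markers of sub-cluster 13 and the rank of Esr1 were added after their values were seen. The members, lists and rules were chosen with earlier results of these data known. Alternatives changed the nucleus and doublet filters, the scaling (edgeR 4.0.16 TMM), the free RNA limit, the depth, the clustering and the count minimum. No protein or promoter sequence was used here. Some genes are not reported here.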

Additional observations from a re-analysis of the deposited data

Results flagged for a closer look

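In several neuron groups the Gal or Galr1 ratio, aged over young, had a 95% counting interval that excluded 1 and lay away from that of all neurons or of other groups. The groups looked at were 26 sub-clusters and 38 finer groups, and those below were picked by their values. With 1 library per age, the difference between these groups was not tested.

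For Gal the ratio was 0.903 in sub-cluster 13 (Tac2, Hmx2), against 1.499 in sub-cluster 16 (Cyp19a1, Greb1), 2.22 in sub-cluster 15 (Bnc2, Slc17a8) and 2.63 in sub-cluster 24 (Chat, Slc5a7), the last on 19 aged and 10 young UMIs. Without the nucleus with most Gal in each library these were 0.898, 1.39 (0.902 to 2.14), 1.51 (0.867 to 2.66) and 2.76. In sub-cluster 13 the share of nuclei above the free RNA limit was 8.96% aged and 8.71% young. For Galr1 the ratio was 1.85 in sub-cluster 17 (Trh, Sim1), against 0.494 in sub-cluster 13. It was 0.0728 in sub-cluster 6 (Gbx1, Megf10), on 1 aged and 19 young UMIs. In each of these sub-clusters, the share of nuclei with a UMI at the common depth differed by an interval that spanned no difference. At full depth that interval lay to 1 side for Gal in sub-clusters 15 and 24 and for Galr1 in 17 and 6.

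Among the finer groups, 3 that lay mostly in sub-cluster 13 differed for Gal, with ratios of 1.37 in the Csta2-led group, 0.806 in the Acss3-led group (64.5% of its nuclei from sub-cluster 13) and 0.449 in the Tac2-led group. In the Tac2-led group the Galr1 ratio was 0.2497 (0.0615 to 0.758).

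In finer groups outside sub-cluster 13, the Gal ratio was 1.63 in the group led by Moxd1 and Cyp19a1, 2.76 in that led by Slc17a8 (1.67 without the nucleus with most Gal in each library), 2.63 in the Chat-led group, which has the nucleus and UMI counts of sub-cluster 24, and 3.86 in that led by Avp and Oxt. The Galr1 ratio was 1.75 in the finer group led by Trh and Sim1 and 2.69 in that led by Trp73. It was 4.10 in that led by Slc17a7, on 7 aged and 12 young UMIs in 22 and 144 nuclei. Sub-cluster 25, with the same leading genes as the Slc17a7-led group, held 1 aged and 73 young nuclei and 0 Galr1 UMIs. Its overlap with that finer group, and the part of this in the ratio, was not tested. In the finer group led by Gbx1, Galr1 was at 0 aged and 12 young UMIs, a ratio of 0 with an upper bound of 0.499. Sub-cluster 18, also led by Avp and Oxt, had a Gal ratio of 4.54 on 11 aged and 16 young nuclei.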

How the results depend on the processing

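Values below are log2 ratios, aged over young, unless named otherwise. No paired analysis was possible because there was 1 library per age, and for the same reason no replicate could be left out. Of the alternatives, 37 left a value within its counting interval, or a count within 1.5 times. Gal in neurons was 0.07, and -0.0258 with all sub-clusters weighted alike. Subtracting the microglia level gave no value for Gal, since neurons lay below it, and moved Galr1 in neurons from -0.002 to 0.66. In barcodes of 100 or fewer UMIs the free RNA ratio reversed from -0.53 to 0.34 for Gal and went from -0.42 to 0.24 for Galr1. The 1704 neuron genes past 1.5-fold became 813 with at least 200 UMIs and 7359 with at least 1. For the moved and reversed free RNA ratios, the cause was not tested. With the unnamed shallow cluster among neurons, an alternative added after seeing the data, Gal was 0.10 and Galr1 -0.001. A Poisson tail of 0.01 gave 57 aged and 60 young neurons above free RNA, and one of 1e-06 gave 29 and 29. At these depths Galr1 was at most 8 UMIs in a neuron, so neurons without a Galr1 UMI cannot be called negative.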
